A study of Arabidopsis thaliana with 18 samples.

Results

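The Aux/IAA repressors and the best known ARF transcription factors of Arabidopsis thaliana were followed in dark-grown and blue-light-treated seedlings of 3 genotypes. The set held 38 of the 32833 genes listed. They were chosen by name and not by a rule on their values, but with earlier results of these data known. They were 29 Aux/IAA genes, 5 ARF genes that encode activators (ARF5, ARF6, ARF7, ARF8 and ARF19) and 4 that encode repressors (ARF1, ARF2, ARF3 and ARF4). RNA was sequenced from 4-day-old seedlings in 18 libraries. The cry2 mutant (allele cry2-1) was sequenced after 30 min of blue light at 30 µmol per square metre per second and in darkness, with 3 libraries each, named cry2_blue and cry2_dark here. Wild-type Col-0 was sequenced after the same blue light (WT_blue, 3 libraries) and in darkness (6 libraries). A quadruple mutant labelled flΔ4, with the alleles fkd1, fl1-2, fl2 and fl3, was sequenced in darkness only (fl4_dark, 3 libraries). By the numbers in the library titles, WT_dark 1-3 were set beside the cry2 and blue-light libraries and WT_dark 4-6 beside fl4_dark. This assignment was read from the titles, so many of the results that depend on it are given against both dark sets. No source used here says that the replicates came from separate cultures, so the p-values measure the spread between these libraries.

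Auxin signalling runs through a short chain of proteins. Aux/IAA proteins bind ARF transcription factors at auxin-responsive genes and recruit co-repressors of the TOPLESS family. When auxin is present, it holds the receptor TIR1 or an AFB relative against a short degron in domain II of the Aux/IAA protein, the repressor is ubiquitinated and degraded, and the ARF is released. Many Aux/IAA genes are themselves targets of ARFs, so their transcripts are widely used as auxin readouts. In dark-grown seedlings this pathway drives the elongation of the hypocotyl, and cryptochromes such as CRY2 are blue-light receptors that restrain that elongation.

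The degron that the receptor reads is centred on the residues Gly-Trp-Pro-Pro. The codons for this core were found in 23 of the 29 Aux/IAA genes and were not found in IAA20, IAA30, IAA31, IAA32, IAA33 and IAA34. Each run below has 30 coding bases from RefSeq (assembly TAIR10.1), 5′ to 3′ on the coding strand, with the core codons in capitals. They are shown because IAA19 and IAA29, the Aux/IAA transcripts that moved most in light, carry the core. So do less responsive members such as IAA12 and IAA28, whereas IAA30 and IAA34, which were also less responsive, lack it.
IAA19: caggtggtgGGGTGGCCACCGgtttgttct
IAA29: gaagttgttGGATGGCCACCAgtaaaaaca
IAA3: cagattgttGGATGGCCACCAgttagatct
IAA17: caagttgtgGGATGGCCACCGgtgagatca
IAA28: ccagtggtgGGATGGCCGCCGgtgagatca
IAA12: caagtggtaGGATGGCCACCAattgggtta
The stretches lie within 1 exon each, at chr3:5264307-5264336 for IAA19, chr4:15583942-15583971 for IAA29, chr1:1129019-1129048 on the minus strand for IAA3, chr1:1136938-1136967 for IAA17, chr5:9033812-9033841 for IAA28 and chr1:1241058-1241087 for IAA12.

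Before the members are described, some properties of the libraries bear on them. CRY2 was at 0 to 0.06 TPM (transcript abundance scaled to a fixed total, so that a level is normalised for transcript length and library size) in the 6 cry2 libraries, against 73.3 to 110.1 TPM in the 9 wild-type libraries. The neighbouring genes MDH1 and AT1G04420 were also at or near 0 in all 6 cry2 libraries, so the mutant lacks transcripts of more than CRY2. Of the genes named by the fl4 alleles, FL1 was lower, with 0.36, 0.13 and 0.37 TPM in fl4_dark against 2.81, 3.58 and 4.62 TPM in WT_dark 4-6, whereas the ranges of FKD1, FL2 and FL3 overlapped those of the wild type. A level per gene does not show where an insertion lies in the transcript. The dark wild-type sets stood apart: 50.8% of the 19703 genes tested between WT_dark 4-6 and WT_dark 1-3 passed an adjusted p of 0.05. Summed over ribosomal RNA and organelle loci, WT_dark 1-3 held 77423 to 82530 TPM, against 8630 to 21673 TPM in the other wild-type and cry2 libraries, and fl4_dark held 14812 to 41254 TPM. With these loci left out and the rest rescaled, the median difference of all genes moved from -0.04 to -0.13 for light in the wild type, from 0.10 to 0.01 for cry2 in darkness and from 0.08 to -0.01 between WT_dark 4-6 and WT_dark 1-3. Some tissue markers differed with the sets as well. Summed over 8 vascular genes (sieve element, xylem and procambium markers such as SUC2, XCP1 and ATHB8), the level in TPM was 89.7 to 132 in cry2_blue and 72.2 to 89.2 in WT_blue. In darkness the same sum was 201 to 257 TPM in cry2_dark, against 233 to 251 TPM for WT_dark 1-3, and 38.6 to 95.7 TPM in fl4_dark, against 83.6 to 118 TPM for WT_dark 4-6. Of these genes VND7, a xylem vessel regulator, was at 0 in fl4_dark 2 and below 3 TPM elsewhere. The part of these marker differences in the results for the members was not tested, and in whole seedlings fewer cells of a type and less RNA per cell cannot be told apart.

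The 38 genes covered a wide range of levels, which can be set against each other because TPM is normalised for length. The median over the 18 libraries was at least 100 TPM for 6 members, from 10 to 100 TPM for 21, from 1 to 10 TPM for 8, and under 1 TPM for 3. IAA7, the gene of the gain-of-function mutant axr2, was the highest of the set at 240.1 to 436 TPM. It was followed by IAA2 at 98.8 to 239.5 TPM, IAA16 at 128 to 231 TPM and IAA9 at 114 to 246 TPM, whose ranges overlapped. IAA17, the AXR3 gene, ranged from 68.3 to 178 TPM and IAA4 from 46.4 to 129 TPM.

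The middle group held both light-responsive and stable genes. IAA8 ranged from 53.9 to 115 TPM, IAA19 from 18.5 to 181 TPM, IAA3 from 43.1 to 99.5 TPM and IAA20 from 51.1 to 271 TPM. IAA26 ranged from 21.8 to 66.1 TPM, IAA13 from 28.2 to 69.2 TPM, IAA12 from 15.2 to 32.8 TPM and IAA18 from 14.1 to 27.1 TPM. IAA27 ranged from 12.03 to 19.9 TPM, IAA6 from 4.38 to 22.6 TPM, IAA1 from 6.68 to 21.2 TPM and IAA11 from 8.52 to 17.2 TPM. IAA28 ranged from 4.73 to 17.4 TPM and IAA29 from 1.34 to 42.9 TPM, the widest relative range of the tested Aux/IAA genes.

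The scarce Aux/IAA genes were IAA14, at 4.25 to 9.08 TPM, IAA32, at 2.78 to 12.4 TPM, IAA5, at 0.71 to 8.25 TPM, IAA10, at 2.70 to 5.74 TPM, IAA34, at 1.58 to 4.51 TPM, and IAA30, at 1.07 to 2.81 TPM. IAA15, IAA31 and IAA33 did not reach the mean of 1 TPM required for testing. IAA15 was at 0 to 0.60 TPM and IAA31 at 0 to 0.57 TPM. IAA33 reached 0.51 to 0.74 TPM in cry2_dark, against 0.11 to 1.24 TPM in WT_dark 1-3, and stayed at 0 to 0.20 TPM in the other 12 libraries. The remaining 35 members passed the filter.

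Among the ARF genes, the repressor ARF2 was the most abundant at 45.0 to 115 TPM, followed by ARF1 at 22.3 to 54.8 TPM. ARF3, which acts in organ polarity, ranged from 9.87 to 15.4 TPM and ARF4, its partner there, from 4.71 to 22.6 TPM. The activators were scarcer. ARF6 ranged from 7.58 to 39.6 TPM, ARF8 from 7.92 to 21.0 TPM, ARF7, which mediates phototropism of the hypocotyl, from 7.93 to 19.6 TPM, ARF5, which patterns the embryo and the vasculature, from 6.23 to 14.9 TPM, and ARF19 from 1.99 to 7.24 TPM. The summed level of the 4 repressors was above that of the 5 activators in each of the 18 libraries.

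**Figure D1:**
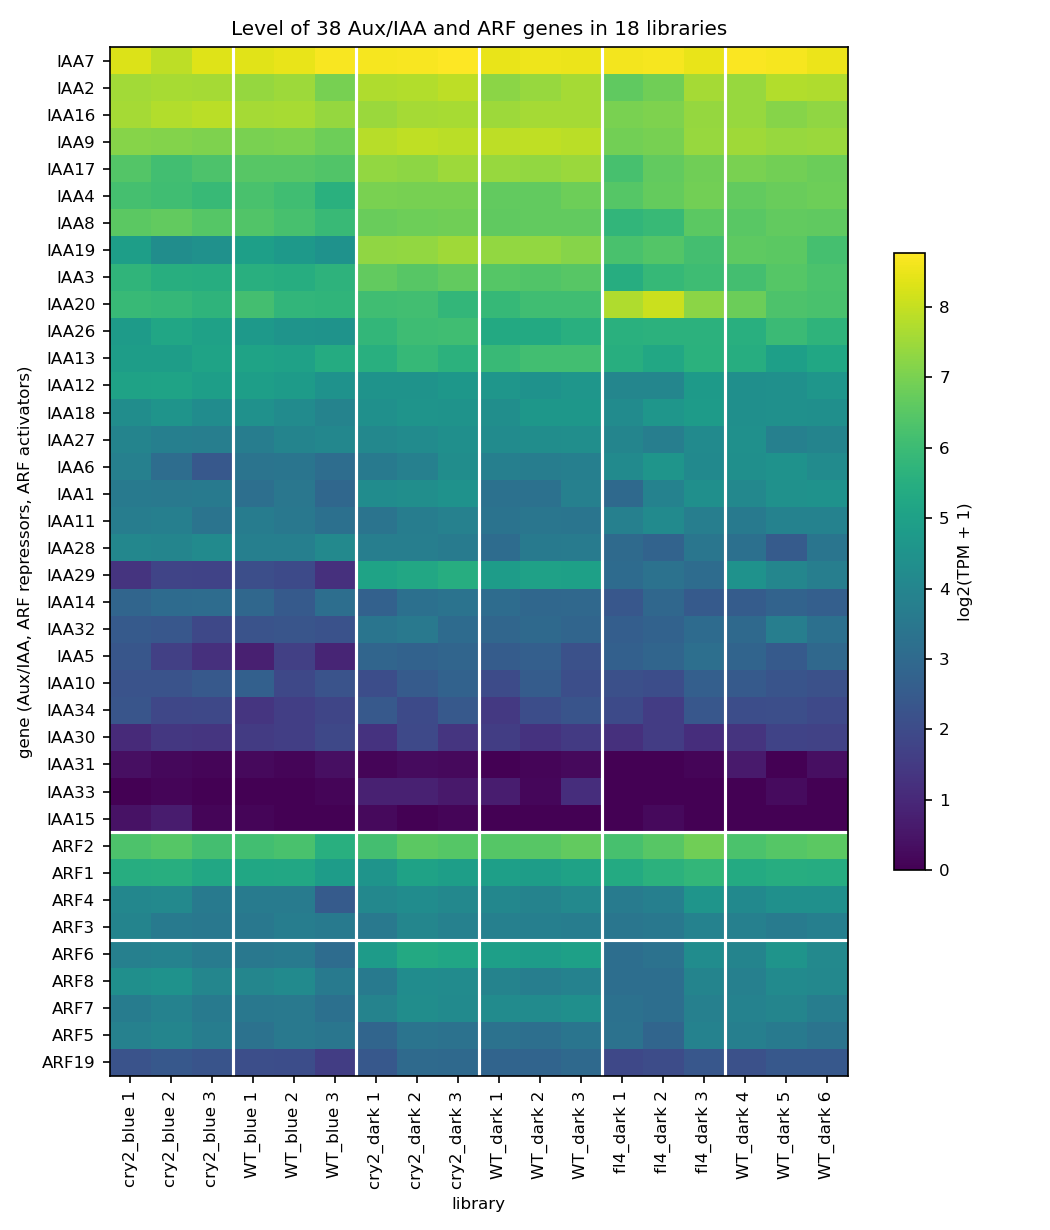
Level of each of the 38 genes (rows, grouped as Aux/IAA, ARF repressors and ARF activators and ordered by median) in each of the 18 libraries (columns, by group), as log2(TPM + 1). IAA7 is bright throughout, IAA19 and IAA29 darken in the 6 blue-light libraries, and IAA20 is brightest in the 3 fl4_dark libraries.

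The Aux/IAA transcripts as a family were lower after blue light. Their sum was 1396 ± 39.9 TPM in the cry2_blue libraries against 2097 ± 84.9 TPM in cry2_dark, and 1365 ± 53.0 TPM in WT_blue against 1905 ± 48.6 TPM in WT_dark 1-3 and 1753 ± 49.0 TPM in WT_dark 4-6 (SD, n = 3 each). The blue-light and dark sums did not overlap. IAA19 and IAA29 together made up 1.55 to 2.13% of the sum in cry2_blue and 1.71 to 2.40% in WT_blue, against 9.46 to 10.3% in cry2_dark and 9.02 to 10.3% in WT_dark 1-3. In WT_dark 4-6 they made up 4.95 to 6.52%.

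The first question was how 30 min of blue light changed the members in each genotype. Differences were tested on log2(TPM + 1) with limma across all genes, and a gene was called at a Benjamini-Hochberg adjusted p under 0.05. Between cry2_blue and cry2_dark, 4 of the 35 tested members rose and 18 fell, where 25.8% of all 19985 genes tested rose and 30.2% fell (55.9% called). Between WT_blue and WT_dark 1-3, 1 member rose and 18 fell, where 28.7% of all genes rose and 32.9% fell (61.6% called). The members' median difference was -0.28 in cry2 and -0.39 in the wild type, against -0.05 and -0.04 over all genes. The libraries of the groups did not overlap for 22 members in cry2 (64.4% of all genes) and for 19 in the wild type (66.0%). The headers name all blue-light libraries with a letter of their own, so light and that naming cannot be told apart. Of 10 root genes, 6 were tested: 3 fell in cry2 and 4 in the wild type. Of 8 vascular genes, 7 were tested, with 1 higher and 5 lower in cry2 and 6 lower in the wild type. Against WT_dark 4-6, 2 of the 6 root genes and 2 of the 7 vascular genes fell in WT_blue (29.1% of all genes called).

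By call, 15 members fell in both genotypes, 1 rose in both and none moved in opposite directions. The share of all genes called alike in both genotypes was not counted. No share therefore stands beside these counts or beside the overlap with cry2 below. Against WT_dark 4-6 in place of WT_dark 1-3, 16 members fell in WT_blue and 1 rose (29.1% of all genes called). Called in the same direction against both dark sets were 13 members that fell (14.1% of all genes) and 1 that rose (7.47%), with 21.5% of all genes called. The 13 were IAA3, IAA4, IAA5, IAA8, IAA9, IAA17, IAA19, IAA26, IAA29, IAA32, ARF4, ARF6 and ARF7, and 12 of them also fell in cry2. IAA1 and IAA6, which did not pass against WT_dark 1-3, were lower in WT_blue than in WT_dark 4-6, by 1.13 and 1.06 log2 units (limma adjusted p = 0.000207 and 0.0174). ARF4, the member of the 13 that was not called in cry2, was at 15.6, 16.5 and 11.1 TPM in the cry2_blue libraries against 16.0, 18.4 and 16.2 TPM in cry2_dark. The WT_blue value is shared by both wild-type comparisons, so these are not independent.

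IAA19 (AT3G15540), a repressor known from its dominant mutants to act in hypocotyl growth and tropisms, was at 28.96, 18.5 and 20.6 TPM in the cry2_blue libraries against 157, 162 and 181 TPM in cry2_dark. It was at 30.3, 25.3 and 21.0 TPM in WT_blue, against 162, 160.3 and 145 TPM in WT_dark 1-3 and 95.7, 94.0 and 71.6 TPM in WT_dark 4-6. All 6 blue-light libraries lay below all 9 of these dark libraries. The difference in log2(TPM + 1) was -2.85 ± 0.16 in cry2 (SE, limma adjusted p = 2.35e-08), -2.57 ± 0.16 in the wild type against WT_dark 1-3 (adjusted p = 3.9e-08) and -1.73 ± 0.18 against WT_dark 4-6 (adjusted p = 4.27e-05).

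IAA29 (AT4G32280), a scarcer relative, was at 1.48, 2.52 and 2.36 TPM in the cry2_blue libraries against 32.8, 36.9 and 42.9 TPM in cry2_dark. It was at 3.30, 2.96 and 1.34 TPM in WT_blue, against 27.6, 31.4 and 30.3 TPM in WT_dark 1-3 and 21.1, 15.2 and 12.5 TPM in WT_dark 4-6. Again no blue-light library reached a dark one. It had the largest difference of the tested members in both genotypes, at -3.64 ± 0.21 in cry2 (adjusted p = 3.57e-08) and -3.17 ± 0.21 in the wild type (adjusted p = 8.54e-08), and -2.31 ± 0.25 against WT_dark 4-6.

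The neighbours IAA3 and IAA17, the SHY2 and AXR3 genes, lie 6.39 kb apart on chromosome 1 on opposite strands with no protein-coding gene between them. IAA17 was at 84.8, 68.3 and 78.8 TPM in the cry2_blue libraries against 164, 155 and 178 TPM in cry2_dark, and at 89.7, 88.3 and 82.4 TPM in WT_blue against 169.8, 163 and 173 TPM in WT_dark 1-3. IAA3 was at 52.4, 44.4 and 43.5 TPM in the cry2_blue libraries against 99.4, 89.6 and 99.5 TPM in cry2_dark, and at 45.0, 43.2 and 50.3 TPM in WT_blue against 87.8, 83.3 and 89.3 TPM in WT_dark 1-3. Neither gene's blue-light libraries overlapped its dark ones. IAA17 fell by 1.09 in cry2 (adjusted p = 1.04e-06) and by 0.95 in the wild type (adjusted p = 2.51e-06), and IAA3 fell by 1.03 in cry2 (adjusted p = 2.14e-06) and by 0.90 in the wild type (adjusted p = 4.92e-06), all in log2 units by limma. Against WT_dark 4-6 the differences were -0.45 ± 0.10 for IAA17 and -0.74 ± 0.11 for IAA3.

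Among the abundant repressors, IAA9, which restrains leaf and vascular development, was at 143, 141 and 133 TPM in the cry2_blue libraries against 228, 246 and 232 TPM in cry2_dark. It was at 128, 130.3 and 114 TPM in WT_blue against 238, 245 and 230.1 TPM in WT_dark 1-3, and fell by 0.75 in cry2 and by 0.93 in the wild type (log2, SE 0.08 in each, limma adjusted p = 7.08e-06 and 8.8e-07). Against WT_dark 4-6 its difference was -0.49 ± 0.09 (adjusted p = 0.00188). IAA26 was at 27.1, 35.2 and 31.1 TPM in the cry2_blue libraries against 54.7, 66.0 and 66.1 TPM in cry2_dark. It was at 25.7, 22.2 and 21.8 TPM in WT_blue against 39.0, 39.1 and 45.2 TPM in WT_dark 1-3. Its groups did not overlap either, and its differences were -0.98 ± 0.12 in cry2 and -0.80 ± 0.12 in the wild type (limma adjusted p = 2.09e-05 and 8.59e-05). Against WT_dark 4-6 the IAA26 difference was -1.15 ± 0.14 (limma adjusted p = 0.000137). IAA4, IAA5, IAA13 and IAA27 also fell in both genotypes. For IAA13 and IAA27 the wild-type call depended on the dark set. IAA27 differed by -0.39 ± 0.12 against WT_dark 1-3 (limma adjusted p = 0.0128), by -0.16 ± 0.15 against WT_dark 4-6 (0.453) and by -0.27 against all 6 dark libraries (0.134). IAA13, a close relative of IAA12, was at 32.9, 31.3 and 41.6 TPM in WT_blue, against 60.9, 69.2 and 69.0 TPM in WT_dark 1-3 (difference -0.90 ± 0.13, adjusted p = 4.76e-05) and 43.1, 29.9 and 36.6 TPM in WT_dark 4-6 (difference -0.04 ± 0.15).

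Of the 6 Aux/IAA genes without the degron core, 4 were tested and IAA32 fell in both genotypes. IAA32 was at 4.58, 4.24 and 2.78 TPM in the cry2_blue libraries against 9.67, 10.7 and 7.39 TPM in cry2_dark, and at 3.73, 3.98 and 3.62 TPM in WT_blue against 6.5, 7.08 and 6.34 TPM in WT_dark 1-3. Its differences were -1.08 ± 0.17 in cry2 (limma adjusted p = 0.000128) and -0.68 ± 0.17 in the wild type (adjusted p = 0.00322), and -1.07 ± 0.21 in the wild type against WT_dark 4-6 (adjusted p = 0.00328). IAA20, IAA30 and IAA34 did not pass the test in either genotype against these dark groups, with differences of -0.18, -0.25 and -0.28 in cry2 and of -0.12, 0.22 and -0.33 in the wild type. Against WT_dark 4-6, IAA20 was lower in WT_blue by 0.58 (adjusted p = 0.0195). Of the 23 genes with the core, 22 were tested. In cry2 2 rose and 14 fell (25.8% and 30.2% of all genes), and in the wild type 1 rose and 12 fell (28.7% and 32.9%).

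IAA28, a repressor of lateral root formation, was the member that passed the test upwards in both genotypes. It was at 15.8, 15.1 and 17.4 TPM in the cry2_blue libraries against 12.5, 12.6 and 11.5 TPM in cry2_dark, and at 12.8, 12.9 and 16.5 TPM in WT_blue, against 7.61, 11.3 and 11.5 TPM in WT_dark 1-3 and 8.42, 4.73 and 9.61 TPM in WT_dark 4-6. The blue-light libraries lay above the dark ones in each of these comparisons. The difference was 0.37 ± 0.15 in cry2 (limma adjusted p = 0.0488), 0.45 ± 0.15 in the wild type (adjusted p = 0.0189) and 0.85 ± 0.19 against WT_dark 4-6 (adjusted p = 0.00781). The call was weak: in cry2 it was lost whichever of the 6 libraries was left out (adjusted p from 0.061 to 0.138) and under 4 other processing settings (0.0519 to 0.0615), and in the wild type without WT_dark 1 (0.0958), without WT_blue 3 (0.0683), with ribosomal RNA and organelle loci left out (0.0506) and with the 6 libraries fitted alone (0.0623).

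Other members near the threshold also lost their calls under some settings. IAA18 passed in the wild type at an adjusted p of 0.0497, which became 0.145 without WT_dark 2, 0.142 without WT_dark 3, 0.0789 without WT_blue 2 and 0.192 without WT_blue 3. It was also lost without the filter on low values (0.0643), with plain eBayes (0.06), with the replicate block (0.0564), with the 6 libraries fitted alone (0.1), against WT_dark 4-6 (0.314) and against all 6 dark libraries (0.113). IAA27 became 0.0659 in the wild type without WT_blue 1 and 0.0532 in cry2 without cry2_dark 3, and ARF4 became 0.0528 and 0.0596 in the wild type without WT_dark 1 or WT_dark 3. In cry2, leaving out 1 library took away the calls of IAA6 (cry2_dark 2 or 3, cry2_blue 2 or 3; 0.0567 to 0.126), IAA8 (all but cry2_blue 2; 0.0577 to 0.153), ARF7 (cry2_dark 2 or 3, cry2_blue 3; 0.0522 to 0.0681) and ARF19 (cry2_dark 2 or 3, cry2_blue 1 or 3; 0.0739 to 0.125). No other member called in either genotype lost its call when 1 library was left out. Under other processing IAA8 lost its call in cry2 without the filter (0.0581), with plain eBayes (0.067) and with the replicate block (0.0523), and with the 6 libraries fitted alone IAA6 lost it in cry2 (0.137) and ARF4 in the wild type (0.0564).

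Of the 5 ARF activators, 3 fell in both genotypes. Of all genes, 30.2% fell in cry2 and 32.9% in the wild type, and the share that fell in both was not counted. ARF6, which acts with ARF8 in flower and hypocotyl growth, was at 13.3, 14.0 and 11.5 TPM in the cry2_blue libraries against 27.4, 39.6 and 35.2 TPM in cry2_dark. It was at 10.3, 11.1 and 7.58 TPM in WT_blue, against 29.6, 28.1 and 30.5 TPM in WT_dark 1-3 and 14.4, 22.4 and 16.7 TPM in WT_dark 4-6. No blue-light library overlapped the dark libraries of its comparison. The difference was -1.32 ± 0.15 in cry2 (limma adjusted p = 1.2e-05), -1.53 ± 0.15 in the wild type (adjusted p = 2.61e-06) and -0.81 ± 0.18 against WT_dark 4-6 (adjusted p = 0.00771), so its size depended on the dark set. ARF7 and ARF19, which act together in lateral root formation, fell in both genotypes, by 0.42 and 0.51 in cry2 and by 0.84 and 0.96 in the wild type. Against WT_dark 4-6 the wild-type values were -0.43 ± 0.14 for ARF7 (adjusted p = 0.0339) and -0.42 ± 0.19 for ARF19 (adjusted p = 0.115).

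ARF5 and ARF8 were not called lower in either genotype. ARF5 was at 13.6, 14.9 and 12.1 TPM in the cry2_blue libraries against 6.23, 9.34 and 8.79 TPM in cry2_dark, a difference of 0.68 ± 0.14 (limma adjusted p = 0.00142). In the wild type it was at 8.95, 10.6 and 9.81 TPM in blue light against 8.84, 8.27 and 9.58 TPM in WT_dark 1-3, a difference of 0.12 ± 0.14. ARF8 differed by 0.23 ± 0.19 in cry2 and 0.09 ± 0.19 in the wild type. Against WT_dark 4-6 the wild-type differences of ARF5 and ARF8 were -0.16 ± 0.15 and -0.10 ± 0.20 (limma adjusted p = 0.449 and 0.73). Of the repressing ARFs, ARF1 rose in cry2 (0.57 ± 0.14, adjusted p = 0.00432) and differed by 0.15 ± 0.14 in the wild type, while ARF2 and ARF4 fell in the wild type (-0.57 ± 0.17 and -0.77 ± 0.26) and differed by -0.08 ± 0.17 and -0.23 ± 0.26 in cry2. Against WT_dark 4-6, ARF1 differed by -0.30 ± 0.14 and ARF2 by -0.46 ± 0.18, and both missed the threshold (limma adjusted p = 0.13 and 0.0732). ARF3 differed by -0.12 ± 0.15 in cry2 and -0.17 ± 0.15 in the wild type.

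**Figure D2:**
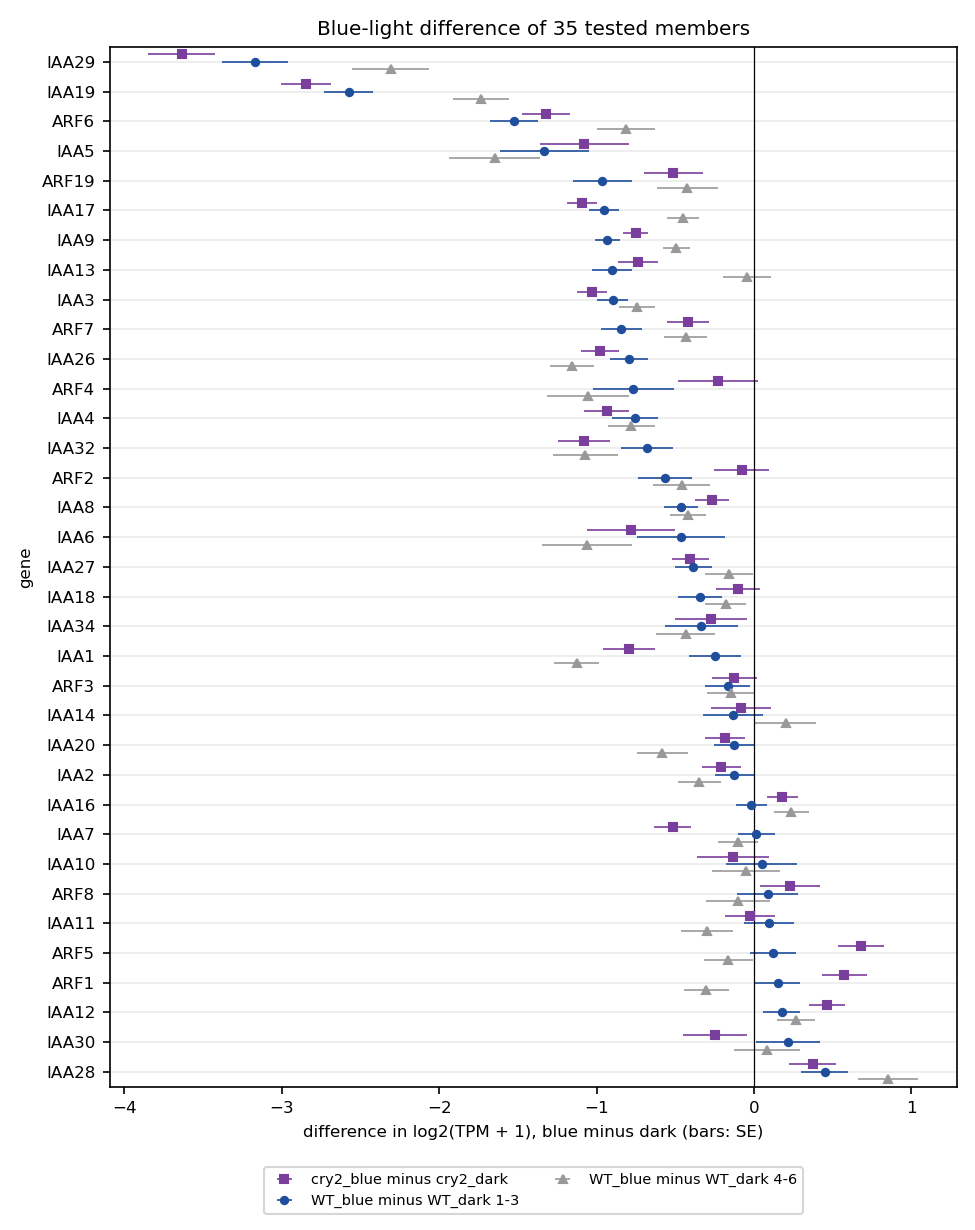
Blue minus dark difference in log2(TPM + 1) for the 35 tested members (rows, ordered by the wild-type value), with bars for the SE. Squares are cry2, circles the wild type against WT_dark 1-3 and triangles the wild type against WT_dark 4-6; IAA29 and IAA19 lie farthest to the left in all 3 comparisons, and IAA1, IAA13, IAA19 and IAA29 move most between the dark sets.

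The promoters of IAA19 and IAA29 are shown because these members had the largest differences in light. Searched on both strands in the 250 bases before each gene's start were the G-box CACGTG and the related CACATG, which phytochrome-interacting bHLH factors bind, and the auxin response elements TGTCTC and TGTCGG, which ARFs bind. CACGTG reads the same on both strands and was counted once, and a match of CACATG can overlap one on the other strand. The sequences are from RefSeq (TAIR10.1), 5′ to 3′ on the plus strand, with motif matches in capitals. The region of IAA20, described below for the fl4 mutant, is given with them.
IAA19: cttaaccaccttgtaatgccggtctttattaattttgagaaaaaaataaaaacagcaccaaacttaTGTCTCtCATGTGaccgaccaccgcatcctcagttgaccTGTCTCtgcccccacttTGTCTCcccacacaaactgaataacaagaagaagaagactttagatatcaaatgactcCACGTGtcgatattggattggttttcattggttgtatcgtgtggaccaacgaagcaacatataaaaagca
IAA29: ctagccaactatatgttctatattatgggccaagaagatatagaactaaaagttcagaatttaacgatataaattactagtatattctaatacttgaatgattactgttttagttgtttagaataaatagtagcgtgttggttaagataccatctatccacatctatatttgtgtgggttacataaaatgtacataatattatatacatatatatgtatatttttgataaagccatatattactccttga
IAA20: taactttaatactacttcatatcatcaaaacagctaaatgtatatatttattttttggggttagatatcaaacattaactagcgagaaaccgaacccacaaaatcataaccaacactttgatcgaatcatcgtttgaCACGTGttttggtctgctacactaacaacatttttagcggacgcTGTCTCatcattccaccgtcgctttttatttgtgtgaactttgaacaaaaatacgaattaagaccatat
They lie at chr3:5263751-5264000, chr4:15583082-15583331 and chr2:19307464-19307713. IAA19 held a G-box starting 70 bases before the gene's start, 1 copy of CACATG on the other strand and 3 copies of TGTCTC. IAA29 held none of these letters in this window, and IAA20 held a G-box and a TGTCTC. Over the 38 members, 4 held the G-box (6.49% of 27443 promoters of that length), 6 held CACATG (11.1%), 10 held TGTCTC (10.9%) and 8 held TGTCGG (4.16%). The G-box genes were IAA7, IAA19, IAA20 and IAA30, of which IAA19 fell in WT_blue against WT_dark 1-3 and the others did not pass that test. In cry2, IAA7 and IAA19 fell, and against WT_dark 4-6, IAA19 and IAA20 fell in WT_blue. A match is a description of the letters and does not show a binding site.

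Other components of the pathway were counted in the same table: 6 receptors, 7 subunits and regulators of the SCF ubiquitin ligase, 5 TOPLESS co-repressors and 14 further ARFs. Of these 32 genes 24 were tested. In cry2 4 rose and 10 fell (25.8% and 30.2% of all genes), and in the wild type 3 rose and 15 fell (28.7% and 32.9%). The receptor gene AFB1 was at 14.3 ± 2.92 TPM in the cry2_blue libraries against 35.4 ± 4.01 TPM in cry2_dark, and at 8.51 ± 1.41 TPM in WT_blue against 31.1 ± 0.87 TPM in WT_dark 1-3 (SD, n = 3 each). AFB1 fell by 1.27 and 1.76 log2 units, with no overlap. The scaffold gene CUL1 fell by 0.53 in cry2 and by 0.88 in the wild type, and AFB2 fell by 0.75 in the wild type. ECR1, part of the enzyme that activates the ligase through RUB conjugation, rose by 0.73 in cry2 and 0.72 in the wild type, and the co-repressor gene TPR2 rose by 0.91 in cry2. Against WT_dark 4-6, AFB1, CUL1 and AFB2 also fell in WT_blue, by 1.29, 0.46 and 0.54, whereas ECR1 differed by 0.15 ± 0.08 (limma adjusted p = 0.174). Over the 24 genes none rose and 9 fell against that set (29.1% of all genes called).

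The next question was whether the loss of CRY2 changed the members. In blue light none of the 35 tested members passed the threshold between cry2_blue and WT_blue in limma (2.61% of all genes were higher and 0.736% lower, 3.34% called), while 10 were higher and 1 was lower at an unadjusted p under 0.05 (22.0% of all genes in both directions). The difference was above 0 for 26 members and below 0 for 9. IAA19 differed by -0.17 ± 0.16 (95% interval -0.51 to 0.17) and IAA29 by -0.15 ± 0.21 (-0.61 to 0.31). The smallest adjusted p belonged to IAA8, at 93.3, 100.02 and 86.5 TPM in the cry2_blue libraries against 82.5, 73.5 and 60.5 TPM in WT_blue (0.37 ± 0.11, adjusted p = 0.0717), and it became 0.0407 without WT_blue 1. Among the other pathway genes AFB1 was higher in cry2_blue, at 15.9, 16.0 and 10.9 TPM against 9.58, 9.04 and 6.92 TPM in WT_blue (0.68 ± 0.15, adjusted p = 0.0341).

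A difference between the genotypes in the light response was also tested, and no member passed with WT_dark 1-3 as the dark wild type. The interaction, (cry2_blue minus cry2_dark) minus (WT_blue minus WT_dark 1-3), gave 0 calls among the 35 members (1.30% of all genes above 0 and 1.51% below, 2.81% called), with 2 members above and 2 below 0 at an unadjusted p under 0.05 (19.3% of all genes). These were ARF5 (0.56 ± 0.20), ARF7 (0.42 ± 0.18), IAA7 (-0.53 ± 0.16) and IAA1 (-0.54 ± 0.23), with limma adjusted p from 0.1 to 0.232. IAA7 was at 318, 240.1 and 321 TPM in the cry2_blue libraries against 399, 413 and 436 TPM in cry2_dark, and at 335, 359 and 409 TPM in WT_blue against 357, 370.3 and 361 TPM in WT_dark 1-3. It was lower in light in cry2 by 0.52 (adjusted p = 0.00225) and differed by 0.02 ± 0.12 in the wild type. The interval of the interaction was -0.75 to 0.21 for IAA19, -1.11 to 0.18 for IAA29, -0.43 to 0.15 for IAA17 and -0.42 to 0.17 for IAA3. In cry2 the light differences of these genes were -2.85, -3.64, -1.09 and -1.03 in the same order. Against WT_dark 4-6 the wild-type light differences were -1.73, -2.31, -0.45 and -0.74. The intervals therefore apply only to WT_dark 1-3 as the dark wild type. For 27 of the 35 members the 95% interval stayed within 1 log2 unit of 0, so differences between the genotypes inside these intervals were not resolved. With WT_dark 4-6 as the dark wild type, 6 members were called, 2 higher and 4 lower (22.5% of all genes called). ARF5 was then among the calls (0.84 ± 0.22, adjusted p = 0.0177), and IAA1 changed sign, at 0.34 ± 0.20 (adjusted p = 0.258). The other called members, those below 0 included, are not named here, so a genotype difference in their light response depended on the dark set.

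In darkness 2 members were higher in cry2_dark than in WT_dark 1-3 and none lower (10.01% of all genes higher and 2.89% lower, 12.9% called). IAA1, the AXR5 gene, was at 18.3, 19.4 and 21.2 TPM in cry2_dark, against 8.63, 8.74 and 13.2 TPM in WT_dark 1-3 and 16.2, 20.7 and 21.1 TPM in WT_dark 4-6. The difference was 0.91 ± 0.17 against the one set (limma adjusted p = 0.00475) and 0.03 ± 0.14 against the other. IAA26 was at 54.7, 66.0 and 66.1 TPM in cry2_dark, against 39.0, 39.1 and 45.2 TPM in WT_dark 1-3 (0.59 ± 0.12, adjusted p = 0.0084) and 45.4, 62.8 and 51.7 TPM in WT_dark 4-6 (0.23 ± 0.14, adjusted p = 0.215). Both genes thus passed the test against WT_dark 1-3 and missed it against WT_dark 4-6. No member was called in the same direction against both dark sets, where 2.40% of all genes were higher and 0.857% lower (3.25% called). Against WT_dark 4-6, 11 were called, 8 higher and 3 lower (40.7% of all genes). Among the 8 were IAA29 (1.18 ± 0.25), IAA19 (0.94 ± 0.18) and ARF6 (0.90 ± 0.18), and the 3 were IAA20 (-0.46), ARF1 (-0.59) and ARF5 (-0.42). Against WT_dark 1-3, IAA29 differed by 0.32 ± 0.21 and IAA19 by 0.10 ± 0.16, and neither was called. Without WT_dark 3, IAA2 was called too (0.49, adjusted p = 0.0459), and without cry2_dark 2, IAA13 was (-0.48, adjusted p = 0.048). IAA13 was also called lower with ribosomal RNA and organelle loci left out (-0.47, adjusted p = 0.0348), and against WT_dark 4-6 it was higher (0.48, adjusted p = 0.0254). Of the 24 other pathway genes tested, TIR1, AFB2 and TPL were lower in cry2_dark than in WT_dark 1-3, by 0.41, 0.28 and 0.37 log2 units (adjusted p = 0.0285, 0.0401 and 0.0462), and none was higher. Against WT_dark 4-6, TIR1 differed by -0.29 (adjusted p = 0.0681), AFB2 by -0.06 (0.591) and TPL by -0.36 (0.0272), and 5 of the 24 genes were called higher and 5 lower.

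IAA10, IAA3, IAA17 and IAA12 lie near CRY2 on chromosome 1, at 124, 55.8, 46.8 and 51.6 kb, and so near the region where the cry2 libraries lacked transcripts. All were detected in every cry2 library. IAA12, the BODENLOS gene that represses ARF5 in the embryo, was at 32.4, 32.8 and 29.01 TPM in the cry2_blue libraries against 29.2, 26.8 and 21.4 TPM in WT_blue, and at 21.8, 21.6 and 24.1 TPM in cry2_dark against 23.4, 21.1 and 23.2 TPM in WT_dark 1-3. IAA10 was at 3.71, 3.76 and 4.49 TPM in the cry2_blue libraries against 5.41, 2.70 and 3.79 TPM in WT_blue, and at 3.19, 4.76 and 5.74 TPM in cry2_dark against 3.06, 4.83 and 3.33 TPM in WT_dark 1-3. The groups overlapped in each of these pairs. The cry2 minus wild-type difference in darkness was 0.15 ± 0.10 for IAA3, -0.03 ± 0.09 for IAA17, 0.22 ± 0.23 for IAA10 and -0.01 ± 0.12 for IAA12, and in blue light it was 0.02 ± 0.10, -0.17 ± 0.09, 0.04 ± 0.23 and 0.28 ± 0.12 in the same order. None passed the threshold in these comparisons. Against WT_dark 4-6, IAA17 was higher in cry2_dark by 0.47 ± 0.10 (limma adjusted p = 0.00347) and IAA3 by 0.30 ± 0.11 (adjusted p = 0.0495). IAA12 rose in light in cry2 (0.46 ± 0.12, limma adjusted p = 0.00427), with an interaction of 0.29 ± 0.16 (adjusted p = 0.359).

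**Figure D3:**
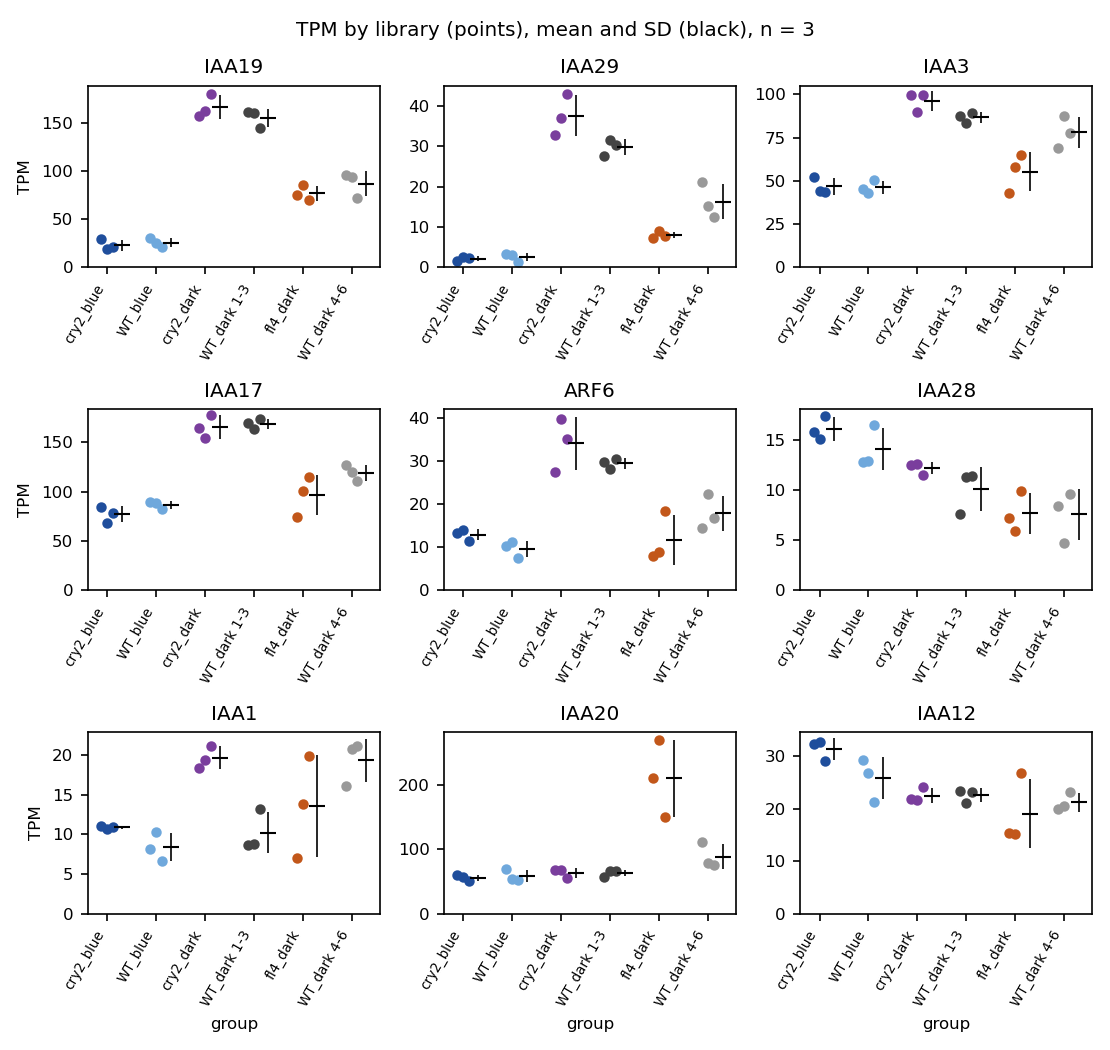
TPM of 9 members in each library (points; group mean and SD in black, n = 3), with linear axes that start at 0. IAA19 and IAA29 are low in both blue-light groups, IAA1 separates WT_dark 1-3 from WT_dark 4-6, and IAA20 is highest in fl4_dark, at 150.4 to 271 TPM.

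The last question was whether the members differed in the fl4 mutant, whose FORKED proteins are known for their part in leaf vein patterning. None of the 35 tested members passed the threshold between fl4_dark and WT_dark 4-6 in limma (0.222% of all genes were higher and 0.0824% lower, 0.304% called). At an unadjusted p under 0.05, 1 was higher and 5 were lower (20.8% of all genes), and the libraries of the groups did not overlap for IAA20, which was higher, and for IAA3 and IAA29, which were lower (25.1% of all genes). The median difference was -0.15 over the members and -0.12 over all genes.

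IAA20 (AT2G46990), which lacks the degron core and whose protein is known to be long-lived, was at 211, 271 and 150.4 TPM in fl4_dark against 112, 79.2 and 75.5 TPM in WT_dark 4-6. The 12 libraries of the other groups held 51.1 to 70.0 TPM, so the 3 fl4_dark libraries were the highest of the 18. The difference was 1.22 ± 0.24 (95% interval 0.68 to 1.76, limma adjusted p = 0.0777) against WT_dark 4-6 and 1.68 ± 0.20 (adjusted p = 0.000236) against WT_dark 1-3. The adjusted p was 0.0389 without WT_dark 4 and 0.0229 without fl4_dark 3.

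IAA29 was at 7.35, 8.90 and 7.64 TPM in fl4_dark, against 21.1, 15.2 and 12.5 TPM in WT_dark 4-6 (-0.92 ± 0.20, limma adjusted p = 0.0866) and 27.6, 31.4 and 30.3 TPM in WT_dark 1-3 (-1.78 ± 0.14, adjusted p = 1.92e-05). IAA19 did not separate from its own dark set: 75.7, 85.4 and 69.6 TPM in fl4_dark against 95.7, 94.0 and 71.6 TPM in WT_dark 4-6 (-0.17 ± 0.15). Against WT_dark 1-3 it differed by -1.01 ± 0.12 (limma adjusted p = 0.000167). IAA3 was at 43.1, 58.1 and 65.0 TPM in fl4_dark against 69.2, 87.5 and 77.5 TPM in WT_dark 4-6 (-0.50 ± 0.17, adjusted p = 0.167). IAA17, its neighbour, was at 74.2, 100.4 and 115 TPM in fl4_dark against 127, 119.7 and 111 TPM in WT_dark 4-6, with an overlap. Against WT_dark 1-3, IAA3 and IAA17 differed by -0.66 ± 0.15 and -0.82 ± 0.16 (limma adjusted p = 0.00632 and 0.00228). IAA12 and IAA10 differed by -0.19 ± 0.22 and -0.04 ± 0.22.

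The fl4_dark libraries differed among themselves. ARF8 was at 7.92, 8.05 and 14.6 TPM in fl4_dark against 13.2, 17.5 and 16.2 TPM in WT_dark 4-6, and IAA8 at 53.9, 59.6 and 93.6 TPM against 90.9, 99.96 and 97.1 TPM. ARF6 and IAA2 had the same form, with fl4_dark 3 near the wild type and the other two libraries below it. The vascular marker sum did so as well, at 43.9, 38.6 and 95.7 TPM in fl4_dark against 83.6, 103 and 118 TPM in WT_dark 4-6. The part of this difference in the members' values was not tested. Without fl4_dark 3, 9 members were called, 1 higher and 8 lower, among them IAA2 (-0.87), IAA8 (-0.75), ARF8 (-0.88), IAA20 (1.44) and IAA29 (-0.90), with limma adjusted p from 0.0229 to 0.0472 (15.2% of all genes called). Without WT_dark 4, 1 member was called (1.71% of all genes). Against WT_dark 1-3 there were 15 calls, 4 higher and 11 lower (49.7% of all genes called), and no member was called in the same direction against both dark sets (0.204% of all genes higher and 0.0367% lower, 0.241% called).

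**Figure D4:**
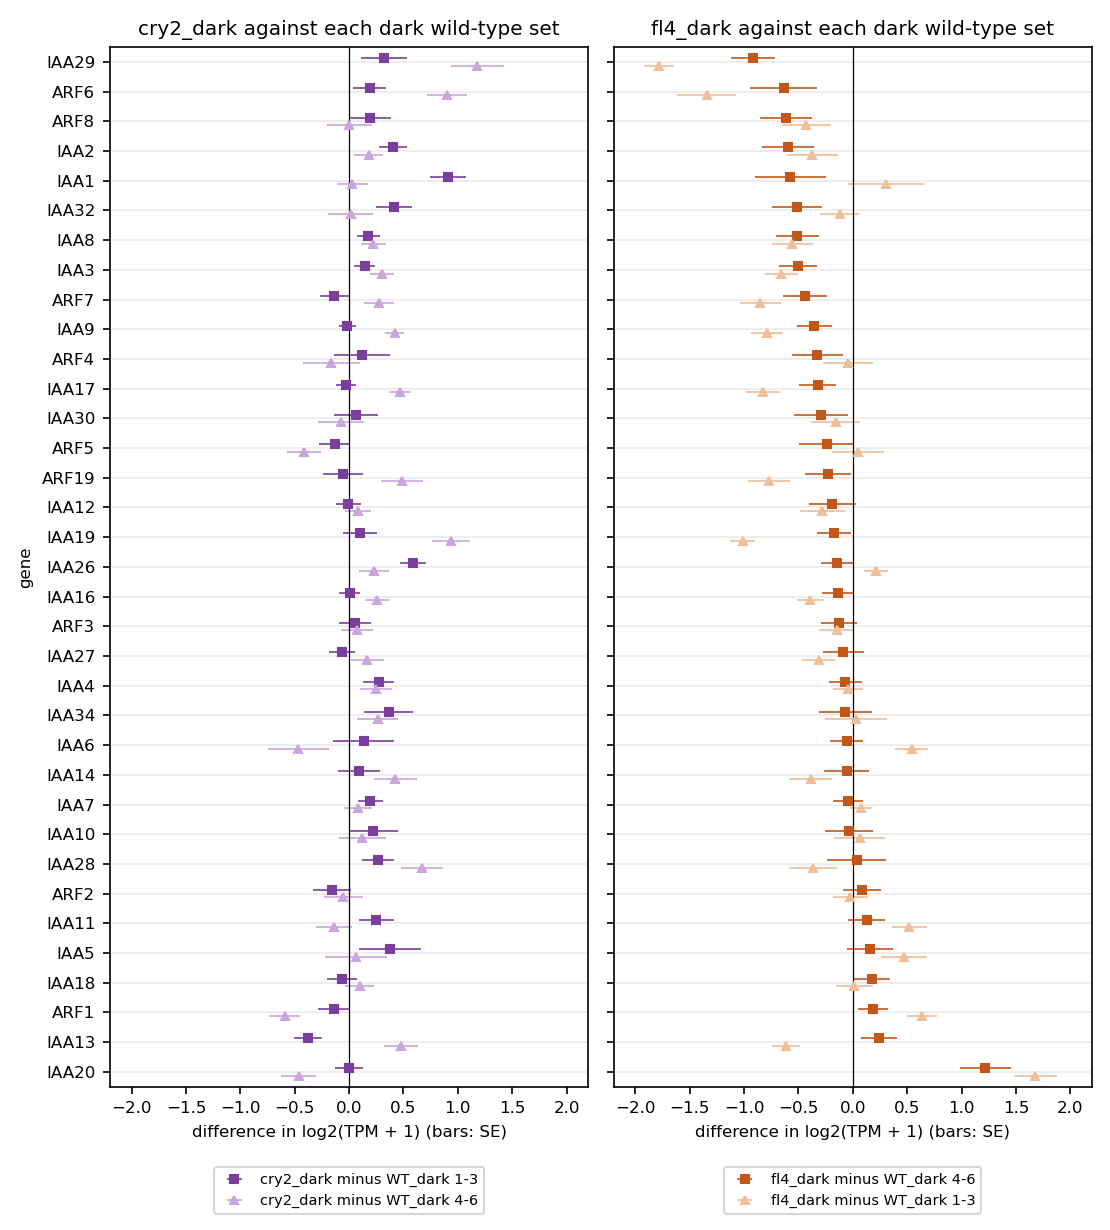
Mutant minus wild-type difference in darkness in log2(TPM + 1) for the 35 tested members (rows, ordered by the fl4 value against WT_dark 4-6), with bars for the SE. Left, cry2_dark and right, fl4_dark, each against both dark wild-type sets. IAA1, IAA13, IAA19 and IAA29 move with the set in the left panel, and IAA20 lies above 1 in both comparisons of the right panel.

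Some members differed as much between the dark wild-type sets as between genotypes. Of the 35 tested, 6 were higher in WT_dark 4-6 than in WT_dark 1-3 and 8 lower (29.8% of all genes higher and 21.1% lower). The higher ones were IAA1, IAA6, IAA11, IAA20, IAA26 and ARF1, and the lower ones IAA9, IAA13, IAA17, IAA19, IAA29, ARF6, ARF7 and ARF19. With ribosomal RNA and organelle loci left out, IAA11, IAA20 and IAA26 lost their calls (limma adjusted p = 0.0607, 0.0844 and 0.133), and IAA14 and IAA16 were called lower. IAA19 was lower by 0.84 ± 0.13 (limma adjusted p = 0.000999), IAA29 by 0.86 ± 0.17 and IAA13 by 0.86 ± 0.14, and IAA1 was higher by 0.88 ± 0.18 (adjusted p = 0.00398). IAA6, the SHY1 gene, was at 19.8, 21.5 and 17.96 TPM in WT_dark 4-6 against 12.9, 12.2 and 12.9 TPM in WT_dark 1-3, with no overlap (0.60 ± 0.10, adjusted p = 0.00171). ARF1 was at 40.2, 43.7 and 41.7 TPM in WT_dark 4-6 against 30.1, 28.4 and 32.5 TPM in WT_dark 1-3 (0.45 ± 0.09, adjusted p = 0.00403). IAA4 and IAA8 did not pass the test, with differences of 0.03 ± 0.10 and -0.05 ± 0.08, and in blue light IAA4 fell by 0.75 against WT_dark 1-3 and by 0.78 against WT_dark 4-6, and IAA8 by 0.46 and 0.42.

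Besides IAA3 and IAA17, 2 other pairs of members lie next to each other. IAA1 and IAA14, 10.7 kb apart on chromosome 4, differed in level and response: IAA14, a repressor of lateral root initiation, did not pass the test in any light or mutant comparison, and in darkness it was at 5.54, 8.33 and 9.08 TPM in cry2_dark against 7.48, 6.65 and 6.83 TPM in WT_dark 1-3. IAA2 and IAA7, 12.5 kb apart on chromosome 3, were both abundant, and neither passed the light test in the wild type (-0.12 ± 0.12 for IAA2 and 0.02 ± 0.12 for IAA7). No protein-coding gene lies between the members of either pair. IAA16 differed by 0.18 ± 0.10 in cry2 and by -0.02 ± 0.10 in the wild type after blue light, IAA11 by -0.03 ± 0.16 and 0.09 ± 0.16, and neither passed the test.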

How the data were processed

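Whole transcriptomes of 18 seedling libraries were measured by RNA-seq (TRIzol RNA, Illumina Stranded mRNA Prep, per the labels' protocols). The submitters' processing notes name fastp, HISAT2, StringTie and TAIR10. The authors deposited 1 TPM value per gene and library; totals were 997143 to 998279 per library. No counts were used, so sequencing depth is unknown and no counting interval is given. A gene entered a fit if its average there reached 1 TPM, and was tested on log2(TPM + 1) with limma 3.58.1 in R 4.3.3 (eBayes with trend and robust), with Benjamini-Hochberg adjustment over all genes tested. A fold change on this scale understates that of scarce genes. The cry2 and light comparisons were read from 1 model of the 12 libraries cry2_blue, WT_blue, cry2_dark and WT_dark 1-3, fl4_dark was fitted with WT_dark 4-6, and the dark sets were fitted with each other. The procedure was tested on simulated data. Loci, coordinates, coding sequence and promoters came from RefSeq TAIR10.1, joined by locus ID since the tables hold no coordinates.

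The members and lists were chosen with earlier results of these data known. All 38 members are named with their range; values in every library are given for up to 8 called members per comparison with the smallest p and for IAA3, IAA10, IAA12 and IAA17, and up to 4 other pathway genes per comparison are named. Values given for other members (ARF4, ARF5, IAA7, IAA8, IAA14, IAA20 and IAA28, and in fl4_dark ARF8, IAA19 and IAA29) were chosen after they were seen. Alternatives were another pseudocount, no filter, values without 289 ribosomal RNA and organelle loci, plain eBayes, quantile normalization, separate fits, other dark libraries, a replicate block and leaving out each library. Calls against both dark sets were added after the data were seen.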

Additional observations from a re-analysis of the deposited data

Results flagged for a closer look

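In the 6 dark wild-type libraries, 1 library lay far from the others for 2 members. IAA8 was at 90.9 TPM in WT_dark 4 and at 97.1 to 100.04 TPM in the other 5. IAA32 was at 12.4 TPM in WT_dark 5 and at 6.34 to 8.34 TPM in the other 5. The gap passed Dixon's 95% critical value, which chance alone exceeds in about 1 group in 20. The number of groups screened is not given here, so the 2 flags cannot be set against chance. The test also takes the 6 libraries as 1 group, although they form 2 sets that stood apart.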

How the results depend on the processing

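Depth is unknown, dark sets were assigned from title numbers, and members scarcer than a few TPM are compressed by the pseudocount. The counts for blue light kept within 1.5 times: 14 to 19 members in the wild type and 16 to 22 in cry2 under every setting tried. No other dark set exists for cry2, so its light calls were not tried against one. The cry2 count in darkness was 2 members (12.9% of all genes called). It became 7 with the 6 libraries fitted alone (4568 calls over all genes) and 11 against WT_dark 4-6 (40.7% of all genes). Against all 6 dark wild-type libraries it was 0 (414 calls over all genes), and it was 0 when both sets had to agree (3.25%). The interaction count, 0 (2.81% of all genes), became 6 with WT_dark 4-6 (22.5%). The fl4 count, 0 (0.304% of all genes), became 15 against WT_dark 1-3 (49.7%) and 1 against all 6 (247 calls over all genes). With 1 library left out it ranged from 0 to 9 (19 to 2940 calls over all genes). The cry2 count in blue light, 0 (3.34% of all genes), ranged from 0 to 1 with 1 library left out (269 to 790 calls over all genes). The cause was not tested. Quantile normalization left 0 members called in the interaction and in fl4_dark.

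Some log2 differences changed sign. For cry2 in darkness, against WT_dark 4-6 and against all 6 dark libraries, IAA12 was 0.0844 and 0.0393 (main value -0.00588), IAA13 was 0.477 and 0.0485 (main value -0.38), and IAA17 was 0.47 and 0.22 (main value -0.03). With 1 library left out, IAA12 ranged from -0.0534 to 0.0200 and IAA17 from -0.0826 to 0.0182. For cry2 in blue light, IAA3 then ranged from -0.0664 to 0.0782 and IAA10 from -0.156 to 0.241. The interaction of IAA1 was 0.335 with WT_dark 4-6, the opposite sign to its main value.

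Same-numbered libraries did not pair: their correlation passed 0.1 in 2 of 18 pairs (-0.057 to 0.231), and in 4 of the 18 pairs the same-numbered library was the best match. With the replicate block, 18 members were called for light in the wild type, 21 for light in cry2, 2 for cry2 in darkness, 0 for cry2 in blue light and 0 for the interaction. The processing settings, this block among them, gave 11544 to 13048 calls over all genes for light in the wild type. For light in cry2 they gave 11019 to 11836. No paired analysis was possible for fl4_dark because it shares no number with WT_dark 4-6.

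Over all genes, leaving out 1 library gave 1039 to 1838 calls for cry2 in darkness (2578 with all), 269 to 790 for cry2 in blue light (668), 95 to 1555 for the interaction (561) and 19 to 2940 for fl4_dark (59). Other processing gave 1917 to 4568, 14 to 692, 278 to 551 and 14 to 75. For light in the wild type, 12317 calls became 5794 against WT_dark 4-6 and 6852 against all 6.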
